A study of Mus musculus with 6 samples.

Results

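MiR-122 is the miRNA made from the Mir122 hairpin, and its 2 mature arms, mmu-miR-122-5p and mmu-miR-122-3p, were the members described here, 2 of the 1900 mature miRNA names in the count tables. They were found by their mature names, which each stood on 1 row of every table. mmu-miR-122-5p had reads in all 6 libraries of renal cortex, and mmu-miR-122-3p had none in any.

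miRNAs are short RNAs that guide Argonaute proteins to partly matching messenger RNAs, whose translation or stability falls. Hepatocytes make miR-122-5p as their most abundant miRNA, where it supports cholesterol and fatty acid synthesis, and it is released into blood when the liver is injured. It is not known as a miRNA of the renal tubule.

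Small RNA libraries were made from renal cortex, 1 per C57BL/6 mouse. The tofogliflozin mice (NASHTofo1, NASHTofo2 and NASHTofo3) received a steatohepatitis-inducing diet, HF/HC/HS/BA, that held tofogliflozin for 8 weeks. The diet-only mice (NASH1, NASH2 and NASH3) received HF/HC/HS/BA alone for 8 weeks. Tofogliflozin inhibits SGLT2, the glucose transporter of the proximal tubule, and all 6 mice were on the fatty diet, so no mouse on an ordinary diet was analysed here. No sex or age is given in these sources, and whole cortex holds blood and vessels beside tubules. Kidney tubule miRNAs were looked at beside the label. All 14 of the tubule list had reads, and together they took 198514 to 249218 CPM (counts scaled to library size with TMM factors). This does not test the label, since all 9 leukocyte and platelet names and all 6 erythroid names also had reads. No other tissue was set beside the cortex.

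Libraries held 8574068 to 29649059 counts after repeated rows were merged. NASHTofo2 was the shallowest and stood apart from the other 5 on the first principal component of log2 CPM, which held 51.8% of the variance. Results that rest on it are given with and without it below.

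Mature sequences are shown for miRNAs that the results set beside miR-122-5p, 5′ to 3′ from RefSeq (GRCm38.p6), with the seed (bases 2 to 8, which pair with targets) in capitals. First come 3 miRNAs that, like miR-122-5p, were far higher in NASHTofo2 than in the other libraries. Then come 4 of the 5 whose level followed that of miR-122-5p most closely over all 6 libraries, an order that depends on NASHTofo2. Last are both arms of miR-802, a miRNA of liver, kidney and pancreas, and miR-192-5p, of liver and kidney.
miR-3535: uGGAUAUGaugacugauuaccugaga
miR-3102-3p: gAGCACCCcauuggcuacccaca
miR-1291: aUGGCUCUuacugaagacuagcaguu
miR-365-2-5p: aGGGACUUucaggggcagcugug
miR-423-3p: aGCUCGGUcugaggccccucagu
miR-3086-5p: uAGAUUGUaggcccauugga
miR-1968-5p: uGCAGCUGuuaaggaugguggacu
miR-802-5p: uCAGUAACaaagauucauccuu
miR-802-3p: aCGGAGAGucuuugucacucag
miR-192-5p: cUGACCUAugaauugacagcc
No seed occurs more than once among these, so no pair of them belongs to a shared seed family. Of 20 miRNAs looked up for such comparisons 15 had an entry, with 15 distinct seeds. No sequence of miR-122-5p is shown, so its seed is not compared with these.

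The level of miR-122-5p was highest by far in NASHTofo2, next in NASH1, and lay within 31.0 to 37.7 CPM in the other 4 mice. It was 37.7, 196 and 35.5 CPM in NASHTofo1, NASHTofo2 and NASHTofo3, against 59.8, 31.0 and 32.0 CPM in NASH1, NASH2 and NASH3. The other tofogliflozin mice lay between NASH1 and the other diet-only mice, so the groups overlapped. These CPM rest on 666, 1646 and 828 reads in the tofogliflozin libraries and on 1786, 557 and 649 reads in the diet-only libraries.

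Counting error was small beside these differences. The 95% exact Poisson interval of NASHTofo2 was 186 to 205 CPM, and that of NASH1 was 57.1 to 62.7 CPM. Neither overlapped another library's interval. NASHTofo1 (34.9 to 40.7 CPM) and NASHTofo3 (33.2 to 38.0 CPM) overlapped each other, as did NASH2 (28.4 to 33.6 CPM) and NASH3 (29.6 to 34.6 CPM). NASHTofo3 also overlapped both NASH2 and NASH3. The intervals cover counting error only, since reads carried no molecular identifiers and a library was made once per mouse. In whole cortex, more cells that hold a miRNA and more of it per cell cannot be told apart.

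**Figure D1:**
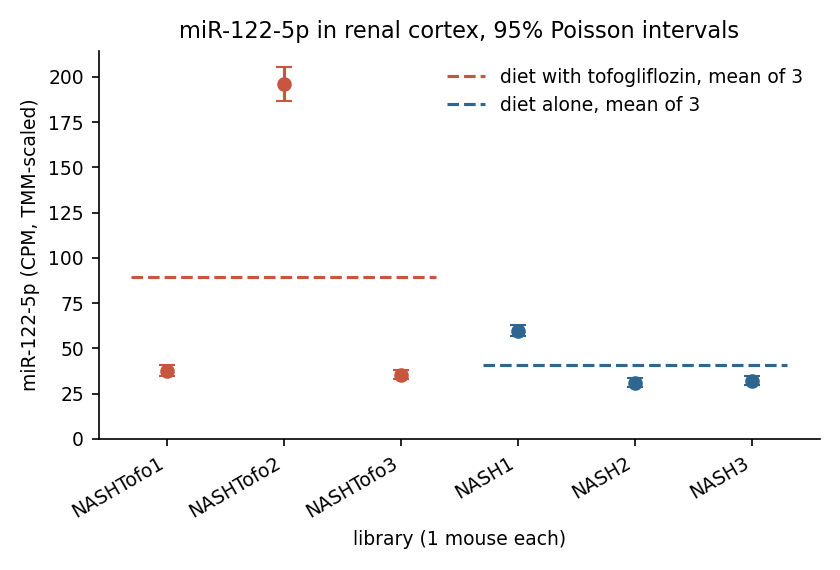
Level of miR-122-5p in each library (y axis, CPM scaled with TMM factors), with the 95% exact Poisson interval as bars and the mean of each group of 3 mice as a dashed line. NASHTofo2 stands at 196 CPM and the other 5 libraries at 31.0 to 59.8 CPM, so the tofogliflozin mean of 89.7 CPM lies above 2 of its own 3 mice.

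By abundance rank, counted from the most abundant miRNA, miR-122-5p stood within the first 14.9% to 22.9% of the miRNAs detected in a mouse. Its rank was 163 of 770 in NASHTofo1, 104 of 696 in NASHTofo2 and 165 of 758 in NASHTofo3. On the diet alone it was 143 of 788 in NASH1, 175 of 763 in NASH2 and 172 of 776 in NASH3. NASHTofo2 gave the best rank, and the order of the mice was that of their CPM. The share of all counts was 0.0192% in NASHTofo2 and 0.00299% to 0.00602% in the other 5 libraries.

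Over all 6 libraries miR-122-5p was miRNA number 143 by mean CPM, at 65.3 ± 64.8 CPM (SD, n = 6). The miRNAs just above it were miR-221-5p (71.0 ± 49.2), miR-194-2-3p (69.4 ± 11.1) and miR-181d-5p (66.6 ± 12.5), and those just below were miR-125b-2-3p (64.8 ± 12.5), miR-374b-5p (63.8 ± 6.28) and miR-195a-5p (62.9 ± 8.48; CPM with SD, n = 6 each). These 7 means differ by less than the spread of miR-122-5p between mice, and among them miR-221-5p had the next widest spread. miR-221-5p was also highest in NASHTofo2, at 167 CPM, against 32.7 to 74.3 CPM in the other libraries.

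**Figure D2:**
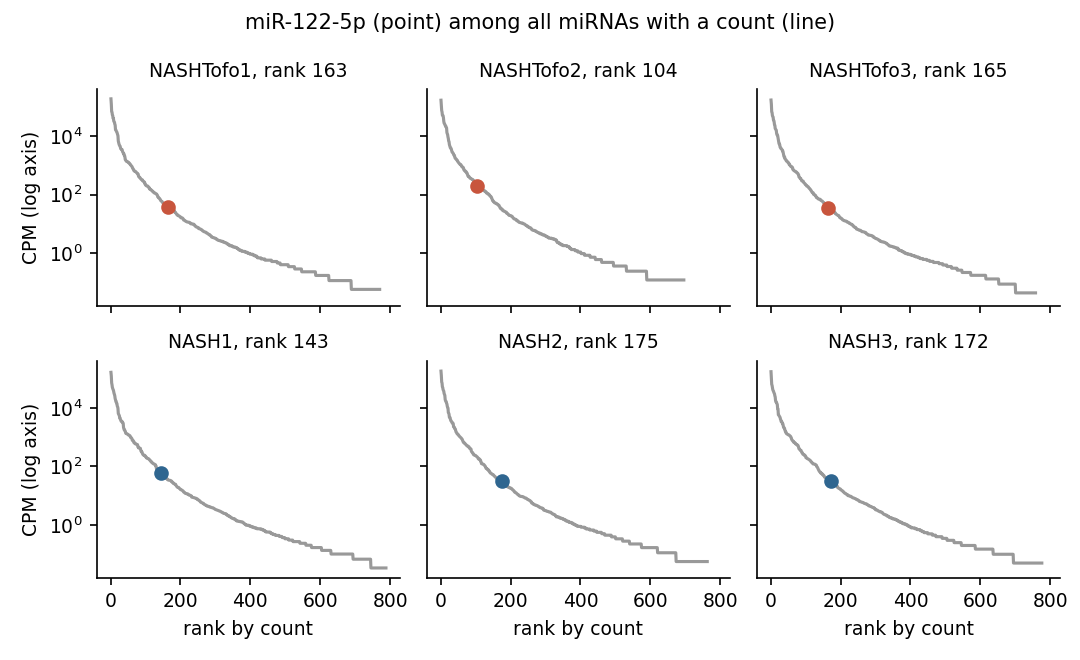
Level of every miRNA with a count (y axis, CPM, log scale) against its rank (x axis) in each library as a grey line, with miR-122-5p as a point, red for tofogliflozin and blue for diet-only mice. The point moves up the curve to rank 104 in NASHTofo2 and lies at ranks 143 to 175 in the other 5 libraries.

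The question of the design was whether tofogliflozin changes cortical miRNAs on this diet, and for miR-122-5p no difference between the groups was detected. It averaged 89.7 ± 91.9 CPM in tofogliflozin mice and 40.9 ± 16.4 CPM in diet-only mice (SD, n = 3 each). The log2 fold change, tofogliflozin minus diet only, was 1.12 ± 0.67 (SE) with a 95% interval of -0.44 to 2.69, a fold of 2.18 with an interval of 0.735 to 6.45. In edgeR's quasi-likelihood test with Benjamini-Hochberg adjustment over 462 miRNAs the p was 0.136 and the adjusted p 0.824. The exact 2-sided permutation test of log2 CPM gave p = 0.5, where 0.1 is the smallest p that 3 against 3 mice allow.

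Only 8 of the 462 miRNAs had a larger absolute log2 fold change, while miR-122-5p took position 70 by p. For background, edgeR called 0 of 462 miRNAs (0%) at an adjusted p under 0.05, and 20 (4.33%) had an unadjusted p under 0.05. Groups did not overlap for 53 of the 462 (11.5%), and miR-122-5p was not among these. With so few mice, groups of some miRNAs separate by chance alone.

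Without NASHTofo2 the direction turned. The remaining tofogliflozin mice averaged 36.6 ± 1.54 CPM (SD, n = 2), against the same 40.9 ± 16.4 CPM in the 3 diet-only mice. The log2 fold change was then -0.19 ± 0.29 (SE), with an interval of -0.87 to 0.50 and an adjusted p of 0.947 in edgeR's quasi-likelihood test over 491 miRNAs. The exact permutation p was 1, where 0.1 is the smallest that 2 against 3 mice allow. The call count was 0 there too (0%), with 23 miRNAs (4.68%) at an unadjusted p under 0.05. Both remaining tofogliflozin mice lay inside the range of the diet-only mice. Groups did not overlap for 109 of the 491 (22.2%). That share cannot be compared with the one over all 6 libraries, since fewer mice separate more often by chance.

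With no filter on low counts edgeR called miR-122-5p higher with tofogliflozin, as 1 of 10 calls among 1026 miRNAs (0.975%), 8 of them higher (0.78%). There its log2 fold change was 1.04 and its adjusted p 5.3e-04, with an SE of 0.218 in place of 0.672. Of these 10 miRNAs 8 had their highest CPM in NASHTofo2, miR-122-5p among them. The unfiltered fit without NASHTofo2 gave -0.18 for miR-122-5p (adjusted p = 0.901 in edgeR). DESeq2 called 2 of 462 miRNAs (0.433%), miR-346-5p and miR-204-5p, and not miR-122-5p.

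**Figure D3:**
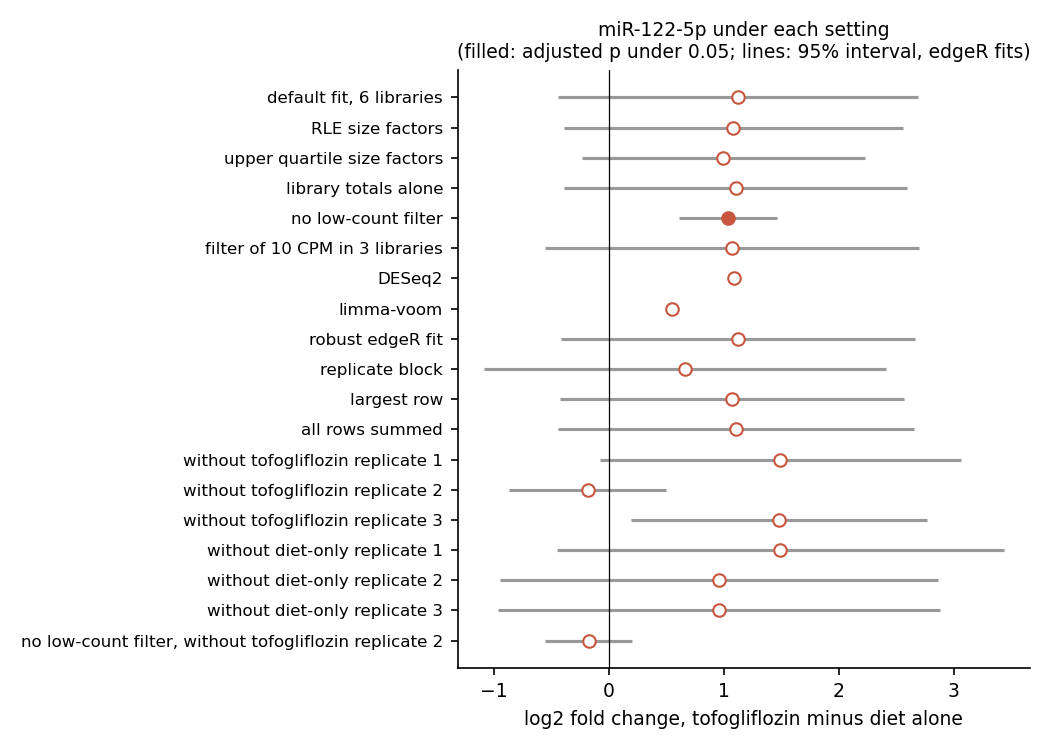
Log2 fold change of miR-122-5p, tofogliflozin minus diet alone (x axis), under each setting (y axis), with 95% intervals as lines for the edgeR fits and a filled point where the adjusted p was under 0.05. The fit with no low-count filter and all 6 libraries is the 1 filled point, at 1.04, and the 2 settings without tofogliflozin replicate 2 lie below 0.

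How far NASHTofo2 stood out was described by setting each library against the median of the other 5, for every tested miRNA. miR-122-5p was higher in NASHTofo2 by 2.46 on the log2 scale, a fold of 5.50 and the fifth highest of 462 values. Above it were miR-3535 (2.92), miR-3102-3p (2.53), miR-1940 (2.53) and miR-1291 (2.52). These 4 are less abundant, with means of 43.6, 2.69, 1.47 and 2.34 CPM. Among the 5, then, miR-122-5p had the most reads behind its excess.

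In the other libraries miR-122-5p differed less from the rest. Its difference from the median of the other 5 was 0.09 in NASHTofo1, -0.09 in NASHTofo3, -0.28 in NASH2 and -0.23 in NASH3. In NASH1 it was 0.75, number 18 of 462. NASHTofo2 differed widely in general. It was the highest library for 171 of the 462 miRNAs (37.0%), and 51 were more than 1 log2 unit above the median there and 31 more than 1 below, against 4 to 9 above and 12 to 18 below in the other libraries. The part of this general difference in the level of miR-122-5p was not tested.

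**Figure D4:**
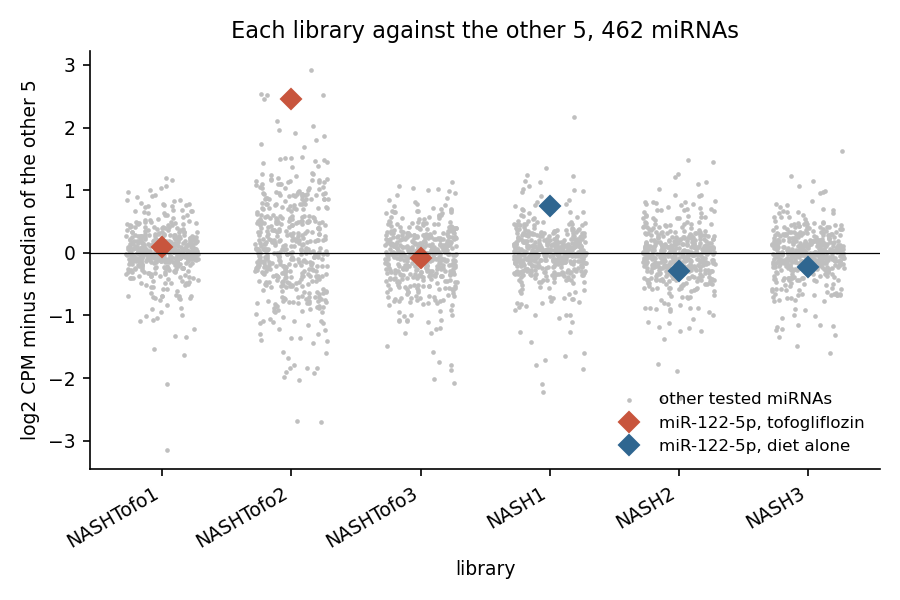
Log2 CPM of each of 462 tested miRNAs minus its median in the other 5 libraries (y axis) by library (x axis), as grey points, with miR-122-5p as a red (tofogliflozin) or blue (diet alone) diamond. The grey points spread most in NASHTofo2, where miR-122-5p is at 2.46, and its next highest value is 0.75 in NASH1.

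MiRNAs that followed miR-122-5p over the 6 libraries were ranked by Pearson's r of log2 CPM, as a description over points that share NASHTofo2. The first 5 of 461 were miR-365-2-5p (r = 0.98), miR-423-3p (0.96), miR-3086-5p (0.96), miR-1968-5p (0.96) and miR-378a-3p (0.96). All 5 were highest in NASHTofo2. miR-365-2-5p was at 16.0, 30.5 and 14.0 CPM in the tofogliflozin mice, against 18.1, 15.5 and 14.6 CPM in the diet-only mice, and so also had NASH1 in second place. miR-1968-5p was at 36.6, 82.3 and 27.3 CPM in the tofogliflozin mice, against 34.0, 28.7 and 29.9 CPM in the diet-only mice.

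Over the 5 libraries without NASHTofo2 the first 5 were miR-1198-5p (r = 0.99), miR-6945-3p (0.95), miR-6899-3p (0.91), miR-98-5p (0.91) and miR-582-3p (0.89), each highest in NASH1 among these 5 libraries. The 2 orders had 0 of their first 5 in common, so the miRNAs named as most alike depend on NASHTofo2.

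Other miRNAs listed as enriched in liver had few reads, and both arms of miR-802 did not share the excess of miR-122-5p in NASHTofo2. Against the median of the other 5 libraries, miR-802-5p was at -1.98 and miR-802-3p at -1.43 log2 units there. The arms of miR-1948 had too few reads for such a comparison. The liver-enriched list held 6 names, 5 with a read and 2 tested. miR-802-5p, a miRNA of liver, kidney and pancreas raised in obesity, had 10, 1 and 18 reads in NASHTofo1, NASHTofo2 and NASHTofo3, against 13, 16 and 16 reads in NASH1, NASH2 and NASH3. miR-802-3p had 8, 1 and 7 reads in the tofogliflozin mice, against 37, 20 and 10 reads in the diet-only mice. Per library size, miR-802-5p was at 0.119 CPM in NASHTofo2, against 0.436 to 0.889 CPM in the other 5 libraries. Both arms of this hairpin were thus lowest in the library where miR-122-5p was highest, on 1 read each in the shallowest library. As kidney also expresses miR-802, its level in cortex is no measure of liver RNA. miR-1948-3p and miR-1948-5p had 14 and 5 reads over all 6 libraries, and miR-1948-5p was highest in NASHTofo2 on 1 read. Tested members of the list, miR-122-5p (log2 fold change 1.12) and miR-802-5p (-0.35), lay on either side of 0, with 0 past the threshold. Without NASHTofo2 3 members were tested, 0 above 0 and 3 below, with 0 past the threshold and a median of -0.19. Over all 491 miRNAs tested there, 228 were above 0 and 263 below.

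MiRNAs that liver and kidney both express went in both directions, by less than the difference of miR-122-5p. The list had 9 of 9 members tested, 4 above 0 and 5 below, 0 past the threshold in either direction and a median log2 fold change of -0.01, beside 0.03 over all 462 miRNAs. miR-192-5p, the most abundant of this list in these cortex libraries, was at 41002, 42943 and 34708 CPM in the tofogliflozin mice. In the diet-only mice it was at 41185, 39893 and 38328 CPM. In NASHTofo2 it was 0.11 log2 units above the median of the other 5 libraries, against 2.46 for miR-122-5p. Over the 9 members that value ran from -1.36 for miR-193a-3p, at a mean of 0.669 CPM, to 0.51 for miR-215-5p, and 2 of the 9 were highest in NASHTofo2. miR-148a-3p, abundant in hepatocytes, was lower there, at 3414 CPM, against 4060 to 4171 CPM in the other 5 libraries. At the levels of miR-192-5p and miR-148a-3p, a rise as large in CPM as that of miR-122-5p would hardly show. The part of liver RNA in the level of miR-122-5p was not tested.

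Of the markers of blood some were highest in NASHTofo2, namely 3 of 9 tested for leukocytes and platelets and 2 of 4 in the erythroid list. Those 2, miR-486-5p and miR-3107-5p, are near-identical copies and not separate markers. NASHTofo2 was the highest library for 37.0% of all 462 tested miRNAs and for 7 of 13 tested in the tubule list. All 6 names of the erythroid list had reads, and their summed level was 239, 379 and 149 CPM in the tofogliflozin mice, against 85.5, 134 and 260 CPM in the diet-only mice. Most of that sum is miR-486-5p and miR-3107-5p (miR-486b), near-identical copies whose reads the counting could share between both rows, with 169 and 181 CPM in NASHTofo2. Without miR-3107-5p the sum was 131, 198 and 85.9 CPM in the tofogliflozin mice, against 51.5, 76.0 and 137 CPM in the diet-only mice, and NASHTofo2 was the highest library in both sums. miR-486-5p, abundant in red cells, was at 99.0, 169 and 58.9 CPM in the tofogliflozin mice, against 32.6, 53.7 and 115 CPM in the diet-only mice. It was highest in NASHTofo2 and lowest in NASH1, the mouse with the second highest miR-122-5p. miR-451a, the defining red-cell miRNA, was at 11.3, 9.04 and 5.97 CPM in the tofogliflozin mice, against 2.68, 7.39 and 9.88 CPM in the diet-only mice, with its maximum in NASHTofo1. Of the 4 tested members of the list, those copies being 2 of them, all had a log2 fold change above 0. Over all 462 tested miRNAs 250 were above 0, with a median of 0.03. The erythroid list had 0 past the threshold and a median of 0.60. That median was 0.30 without NASHTofo2, 0.36 without NASH1 (3 above 0 and 1 below) and 1.05 without NASH3. The part of blood in the level of miR-122-5p was not tested.

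For leukocytes and platelets 9 of 9 names had reads. Their summed level was 1167, 1175 and 1047 CPM in the tofogliflozin mice, against 1424, 2170 and 1213 CPM in the diet-only mice, so NASH2 was highest. Most of that sum is miR-146a-5p, with 983 CPM in NASHTofo2 and 1988 CPM in NASH2. The other 8 members summed to 123, 192 and 113 CPM in the tofogliflozin mice, against 134, 181 and 128 CPM in the diet-only mice, and there NASHTofo2 was highest. Of the 9 members, all tested, 1 was above 0 and 8 below, beside 250 above and 212 below over all 462 miRNAs. The list had 0 past the threshold and a median log2 fold change of -0.17. That median was -0.55 without NASHTofo2, -0.37 without NASH1, -0.08 without NASH2 and -0.38 without NASH3, and -0.12 without NASHTofo1. The members highest in NASHTofo2 were miR-223-5p (34.4 CPM), miR-155-5p (70.7 CPM) and miR-142-3p (9.52 CPM), against 11.2 to 28.2 CPM, 22.2 to 34.2 CPM and 5.37 to 8.95 CPM in the other libraries. Below the median of the other 5 libraries there were miR-147-3p (-0.53 log2 units), miR-142-5p (-0.46), miR-150-5p (-0.21) and miR-146a-5p (-0.14). miR-342-3p (0.92) and miR-223-3p (0.14) were above it in NASHTofo2 but highest in NASH2. The part of these cells in the level of miR-122-5p was not tested.

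The 3 endothelial miRNAs went in both directions in NASHTofo2. There miR-126a-3p was lowest, at 12012 CPM against 13697 to 16720 CPM in the other 5 libraries. miR-126a-5p was at 180 CPM, against 181 to 196 CPM. miR-139-5p was highest, at 732 CPM against 473 to 624 CPM.

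**Figure D5:**
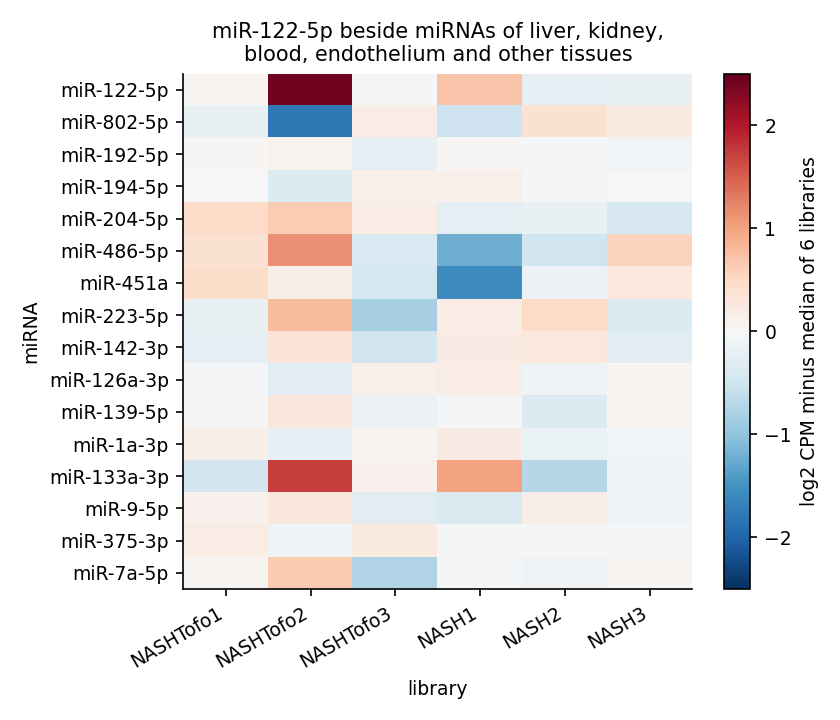
Log2 CPM minus the median of the 6 libraries (colour, red above and blue below) for miR-122-5p and 15 miRNAs known from liver, kidney, blood, endothelium, muscle, brain or pancreas (rows), by library (columns, tofogliflozin mice on the left). The darkest red cell is miR-122-5p in NASHTofo2 and the darkest blue cell is miR-802-5p in the same library.

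miRNAs known from other organs were set beside miR-122-5p, and several had more reads than miR-122-5p. Reads of different miRNAs also depend on how well each is ligated. Whether cortex makes these miRNAs itself was not tested, so they give no scale for a miRNA outside its home tissue. Of the brain list, miR-128-3p averaged 3103 CPM. The muscle miRNA miR-1a-3p averaged 163 CPM over the 6 libraries, the neural miR-9-5p 264 CPM and the islet miRNA miR-375-3p 127 CPM. In NASHTofo2 miR-1a-3p was at -0.29, miR-375-3p at -0.14 and miR-9-5p at 0.39 log2 units from the median of the other 5. Other members of these lists were higher there. The muscle miRNA miR-133a-3p was at 0.283, 1.67 and 0.472 CPM in the tofogliflozin mice, against 0.972, 0.222 and 0.395 CPM in the diet-only mice. It thus had NASHTofo2 first and NASH1 second, as miR-122-5p did, with 1.83 log2 units in NASHTofo2 on 71 reads over all libraries. miR-7a-5p of islets was at 5177 CPM in NASHTofo2, against 1938 to 3450 CPM in the other 5, a difference of 0.71 log2 units. miR-124-3p and miR-137-3p of neurons and miR-208b-3p of heart had 0 reads in all 6 libraries, as had 4 of the 5 embryonic stem cell miRNAs. The pancreatic miR-216a-5p, miR-216b-5p and miR-217-5p were at a mean of 0.03 CPM or less.

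Besides miR-122, hepatic lipid and cholesterol handling involves miRNAs such as miR-33-5p, which lowers cholesterol export, and miR-370-3p, described upstream of miR-122 in liver cells. Of 20 such names 18 were tested, 9 above 0 and 9 below, with 0 past the threshold and a median of -0.01, beside 0.03 over all 462 miRNAs. miR-370-3p was at 3.40, 1.43 and 1.93 CPM in the tofogliflozin mice, against 1.64, 1.22 and 1.19 CPM in the diet-only mice, with a log2 fold change of 0.75 ± 0.38 (SE; adjusted p = 0.824 in edgeR). It was not high in NASHTofo2. miR-33-5p had a log2 fold change of 0.03 ± 0.47 (SE) at a mean of 0.903 CPM.

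The passenger arm miR-122-3p had a count of 0 in all 6 libraries, beside 6132 reads of miR-122-5p in all. Whether this arm was among the sequences counted is not given in the sources used here, and if it was not, its 0 sets no limit on its level. If it was counted, a count of 0 allows, with 3 counts as the limit, up to 0.170, 0.357 and 0.129 CPM in NASHTofo1, NASHTofo2 and NASHTofo3, and up to 0.101, 0.167 and 0.148 CPM in NASH1, NASH2 and NASH3. As a share of the reads of the hairpin the limit would then be 0.182% in NASHTofo2, 0.168% in NASH1 and 0.0489% over all 6 libraries. No comparison between the groups could be made for this arm.

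Per GENCODE M21 (GRCm38, the build called mm10), Mir122 occupies bases 65248861 to 65248926 of chromosome 18, plus strand. It overlaps an exon of the long noncoding RNA AC157910.3, which spans 65244287 to 65252621 on the same strand. The protein-coding genes on either side are Nedd4l, 31033 bases away, and Alpk2, 16603 bases away.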

How the data were processed

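The authors deposited 1 table of raw read counts per library, with no normalization per the file headers and values, in 2033 rows for 1900 mature miRNA names. Per the submitters' processing notes, cutadapt 1.14 and build mm10 were used. No source used here gives the aligner, the counting program or the miRBase release. Per the labels' protocols, RNA came from a NucleoSpin miRNA kit and libraries from a NEBNext small RNA kit.

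Identical rows of a name were counted once and differing rows summed. The main fit, tofogliflozin minus diet only over 462 miRNAs without covariates, used the 2-sided quasi-likelihood test of edgeR 4.0.16 (R 4.3.3) after TMM scaling. Its filterByExpr defaults keep miRNAs by a minimum count of 10 and a minimum total of 15. P-values were adjusted by Benjamini-Hochberg with a threshold of 0.05. SE is the absolute log2 fold change over the square root of F. Log2 CPM had a prior count of 2. The replicates are separate libraries of separate mice per the series' design text, and no pair of replicates agreed within sampling noise. Alternatives used DESeq2 1.42.0, limma 3.58.1 and other settings. The fit was tested on simulated data.

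The members, lists and tests were chosen with earlier results of these data known. Named miRNAs are the members, members of marker lists, the 5 most alike in pattern, 3 neighbours on either side by mean CPM and the 5 with the largest excess in NASHTofo2. Names of other miRBase releases were matched (miR-486a to miR-486, miR-486b to miR-3107, miR-142a to miR-142).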

Additional observations from a re-analysis of the deposited data

How the results depend on the processing

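The direction and call of miR-122-5p held with RLE, upper quartile or no size factors, a filter of 10 CPM in 3 libraries, DESeq2, limma-voom, a robust fit, the largest row and all rows summed. Over these and the other planned settings with all 6 libraries, its log2 fold change ran from 0.55 (limma-voom) to 1.12. With the replicate number as a block, which is no known pairing, it was 0.66 (adjusted p = 0.963 in edgeR) and 0 miRNAs were called. Deviations of mice with the same number correlated at r = -0.02, -0.11 and -0.17 over the tested miRNAs. With no low-count filter it passed the threshold at 1.04. Leaving out 1 library gave -0.19 to 1.49, below 0 only without tofogliflozin replicate 2. Without tofogliflozin replicate 3 it was 1.48 (unadjusted p = 0.0294, adjusted p = 0.311 in edgeR). In that fit 74 of 483 miRNAs had an unadjusted p under 0.05, against 20 of 462 in the main fit. Chosen after seeing the data, the unfiltered fit without tofogliflozin replicate 2 gave -0.18. Called miRNAs numbered 10 without the filter, 9 of 1011 without both the filter and that library (4 of them the same), 2 with DESeq2 and 0 otherwise. The mean rank was 144 in tofogliflozin mice (134 to 164 with a mouse left out) and 163 in diet-only mice (158 to 174). Alternatives for miR-122-3p and its share of the hairpin could not be run, since all its counts are 0. The cause of these changes was not tested.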

Other observations

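A count of 0 for the lower arm was not particular to miR-122-3p. Of 849 other hairpins with both arms listed, 136 had at least as many reads in the higher arm as miR-122-5p, and in 16 of these (11.8%) the lower arm was at 0 in all 6 libraries. They include hairpins with far more reads, such as the one of miR-7a-5p with 182161 reads against 0 for miR-7a-2-3p, and that of miR-146a-5p with 144669 reads against 0 for miR-146a-3p. Among 37 other hairpins whose higher arm lay within a factor of 2 of miR-122-5p, 5 had a lower arm at 0, and the median share of the lower arm was 1.39%. Whether arms at 0 were among the sequences counted is not given in the sources used here, and an arm that was not counted would also be listed at 0.

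Of the miRNAs with a larger excess than miR-122-5p in NASHTofo2, miR-3535 and miR-1291 overlap annotated small nucleolar RNA genes on the same strand, Gm24148 on chromosome 1 and Snora34 on chromosome 15. Their positions also overlap the protein-coding genes Ncl (miR-3535) and Kansl2 (miR-1291). Of 398 tested miRNAs with a RefSeq position 8 overlap a small nucleolar RNA gene on the same strand. The excess of the rest of these 8 ranged from 1.03 for miR-677-5p (number 49 of 462) to -0.29 for miR-3084-5p (number 334).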
